A study of Mus musculus with 4 samples.

Results

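Expression of 43 genes of cytokine and NF-kappaB signalling was compared between 2 populations of endothelial cells from mouse lung, those in which the alpha smooth muscle actin (aSMA) gene had been active and those with no record of such activity. The genes are a named list of cytokines, cytokine receptors, adaptors and kinases, NF-kappaB subunits, inhibitors and the IkappaB family, the STAT3 arm and responsive genes. All 43 are among the 17915 genes of the deposited table, and 42 had enough counts to be tested. The rule names genes by role and sets no threshold on expression, but the genes were chosen with earlier results of these data known, so their shares beside those of all genes are a description.

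The mice carried Cdh5-CreER, aSMA-LSL-Dre and NR1, received tamoxifen 5 times and had transverse aortic constriction (TAC), an operation that narrows the aorta and was used to bring about lung fibrosis, for 6 weeks. Tamoxifen activates CreER, which the Cdh5 promoter drives in endothelium, and endothelial cells then carry the green reporter ZsGreen. Dre recombinase, placed under aSMA control, switches a cell to the red reporter tdTomato even when aSMA is active only briefly, so red marks a history and not present expression. Each population has 2 libraries, labelled biological replicates 1 and 2 and called tdTomato+ 1 and 2 and ZsGreen+ 1 and 2 below; all 4 come from mice with the same genotype, tamoxifen and TAC, and no unoperated mice enter the comparison. The labels do not say whether the replicates came from separate mice. P-values therefore describe only how these libraries vary, which may be in part technical.

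Libraries held 17050673 to 18574737 counts, with 14969 to 15747 genes detected in each. Values are CPM (each gene's share of the counts, on a fixed total) scaled by TMM, a correction for library composition, unless TPM, which also corrects for transcript length, are named. Pan-endothelial marker genes summed to 6344 and 5960 CPM in tdTomato+ 1 and 2 and to 7571 and 6879 CPM in ZsGreen+ 1 and 2. In each library this was above the sum of each other marker list measured. The alveolar macrophage markers came close in tdTomato+ 1, at 5252 CPM, of which Lyz2 alone gave 3953 CPM. Differences are log2 fold changes of tdTomato+ over ZsGreen+ from edgeR's quasi-likelihood test, and a gene was called at a Benjamini-Hochberg adjusted p under 0.05 over 13177 tested genes.

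NF-kappaB is a family of paired transcription factor subunits that inhibitors of the IkappaB family hold in the cytoplasm. Interleukin-1, tumour necrosis factor and Toll-like receptor signals act through adaptors such as MyD88 and the TRAF proteins on the IkappaB kinases, which mark IkappaB for degradation and free the subunits to enter the nucleus. The released factors turn on cytokines and adhesion molecules, and also their own inhibitors, among them IkappaB-alpha and A20, so that activation limits itself. Interleukin-6 and its relatives signal through the shared receptor chain gp130 to STAT3, which induces its own brake, SOCS3. In endothelium these pathways drive the adhesion of leukocytes to the vessel wall.

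Promoter windows of 250 bases before the RefSeq start of transcription (GRCm38.p6) were available for 35 of the 43 genes. They are shown because many of these genes are both regulators and targets of NF-kappaB, and the windows let a reader see where matches to the NF-kappaB consensus lie. In the sequences below, written 5′ to 3′ on the strand of the gene, capitals mark the bases of a match to the NF-kappaB consensus or, in Tnfrsf1b, to the STAT motif TTCNNNGAA. Only the longest stretch of each window that no annotated exon covers is printed, while the whole window was searched for motifs. The stretch of Traf1 runs from 250 to 41 bases before the start, and that of Lcn2 from 111 to 59. The printed stretches are those of Nfkbia (chr12:55492648-55492897, minus strand), Rel (chr11:23770971-23771219, minus strand), Nfkbie (chr17:45555450-45555699, plus strand), Il6 (chr5:30012864-30013113, plus strand), Csf1 (chr3:107760470-107760719, minus strand), Tnfrsf1b (chr4:145246871-145247120, minus strand), Traf1 (chr2:34961813-34962022, minus strand) and Lcn2 (chr2:32387798-32387850, minus strand).
Nfkbia: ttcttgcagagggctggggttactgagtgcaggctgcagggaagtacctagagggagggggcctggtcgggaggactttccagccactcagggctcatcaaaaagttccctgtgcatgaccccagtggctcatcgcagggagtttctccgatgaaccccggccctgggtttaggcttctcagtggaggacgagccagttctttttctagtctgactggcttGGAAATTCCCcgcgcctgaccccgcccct
Rel: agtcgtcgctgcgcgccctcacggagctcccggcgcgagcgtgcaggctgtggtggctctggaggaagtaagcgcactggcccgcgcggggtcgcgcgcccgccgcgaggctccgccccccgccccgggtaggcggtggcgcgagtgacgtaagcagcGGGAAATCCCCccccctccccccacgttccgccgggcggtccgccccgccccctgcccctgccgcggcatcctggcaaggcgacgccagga
Nfkbie: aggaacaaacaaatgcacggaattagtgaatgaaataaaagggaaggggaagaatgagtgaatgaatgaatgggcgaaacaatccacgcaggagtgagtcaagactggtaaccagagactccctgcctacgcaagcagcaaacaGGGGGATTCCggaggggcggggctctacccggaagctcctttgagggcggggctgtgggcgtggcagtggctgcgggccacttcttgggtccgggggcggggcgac
Il6: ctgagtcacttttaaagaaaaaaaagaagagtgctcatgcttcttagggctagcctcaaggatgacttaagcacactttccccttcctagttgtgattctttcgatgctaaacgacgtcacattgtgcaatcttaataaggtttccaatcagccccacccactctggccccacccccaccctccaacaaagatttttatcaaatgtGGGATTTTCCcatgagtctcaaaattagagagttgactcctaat
Csf1: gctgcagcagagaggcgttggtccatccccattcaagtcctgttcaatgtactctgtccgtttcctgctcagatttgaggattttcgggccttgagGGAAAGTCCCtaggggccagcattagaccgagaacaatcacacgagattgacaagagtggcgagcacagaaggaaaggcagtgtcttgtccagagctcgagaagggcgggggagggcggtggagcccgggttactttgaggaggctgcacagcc
Tnfrsf1b: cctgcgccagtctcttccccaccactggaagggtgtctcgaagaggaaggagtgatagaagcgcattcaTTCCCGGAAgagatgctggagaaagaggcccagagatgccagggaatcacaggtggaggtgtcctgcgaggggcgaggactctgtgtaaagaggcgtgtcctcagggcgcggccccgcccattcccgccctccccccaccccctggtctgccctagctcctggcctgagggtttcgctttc
Traf1: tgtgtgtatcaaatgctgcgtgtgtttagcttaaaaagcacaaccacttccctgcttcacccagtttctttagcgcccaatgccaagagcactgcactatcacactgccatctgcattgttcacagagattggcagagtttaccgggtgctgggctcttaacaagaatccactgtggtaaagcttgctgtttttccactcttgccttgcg
Lcn2: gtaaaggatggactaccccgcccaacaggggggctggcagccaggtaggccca

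The match before Nfkbia begins 29 bases upstream of the start and that before Il6 begins 44 bases upstream. On both strands together, the NF-kappaB consensus was found in 12 of the 35 genes with a window, namely Il1r1, Csf1, Il6, Tnfaip3, Lif, Rel, Irf1, Tnip1, Nfkbia, Tnfaip2, Nfkbie and Nfkb2. Some genes have several starts: 14 of the 44 windows of these genes (31.8%) held it, against 2382 of 32851 windows of all genes (7.25%). STAT motif TTCNNNGAA, which reads the same on both strands, was found in the windows of 7 of the 35 genes (Tnfrsf1b, Tnfrsf1a, Myd88, Irf1, Tnip1, Socs3 and Nfkb2), or 15.9% of the windows against 7.02% of all. Neither motif was found in the windows of Traf1 and Lcn2, the members with the smallest p. A match says only that these letters are present and does not show binding.

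None of the 42 tested genes was called by edgeR, where 0.304% of all tested genes were (40 of 13177, 0.167% higher and 0.137% lower in tdTomato+ cells). At an unadjusted p under 0.05, 9 members passed (21.4%), with 8.77% of all tested genes passing, and 8 of the 9 were higher in tdTomato+ cells (5.62% of all genes) and 1 was lower (3.15%). DESeq2 called 4 members (2.44% of its genes) and limma-voom 0 (0.250%). Scaling by RLE or by upper quartile factors gave 0 members (0.311% and 0.281% of all genes). Testing without a filter called Traf1, Tnfaip2 and Lcn2 (0.764%), and a filter of at least 50 counts called Traf1 (0.406%). Limma called Lcn2 on log2(TPM + 1) (0.259%) and 0 members on log2(TPM + 0.1) (0.184%). Both tdTomato+ libraries lay above both ZsGreen+ libraries for 16 members (38.1%, against 19.9% of all genes) and below them for 2 (4.76%, against 18.2%). The log2 fold change was above 0 for 32 of the 42 (76.2%, against 49.3% of all genes), with a median of 0.32 where the median of all genes was -0.01. By role the medians were 0.85 for the cytokines, 0.32 for the receptors, 0.23 for the adaptors and kinases and 0.34 for the subunits. They were 0.26 for the inhibitors and the IkappaB family, -0.04 for the STAT3 arm and 0.23 for the responsive genes. Leaving out ZsGreen+ 1 moved the number of members called from 0 to 7 (Traf1, Tnfaip2, Lcn2, Il1a, Il1b, Tnfrsf1b and Nfkb1), with 2.21% of all genes called. Without ZsGreen+ 2, only Lcn2 was called (0.190%), and no member was called without tdTomato+ 1 (0.126%) or tdTomato+ 2 (0.0295%).

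**Figure D1:**
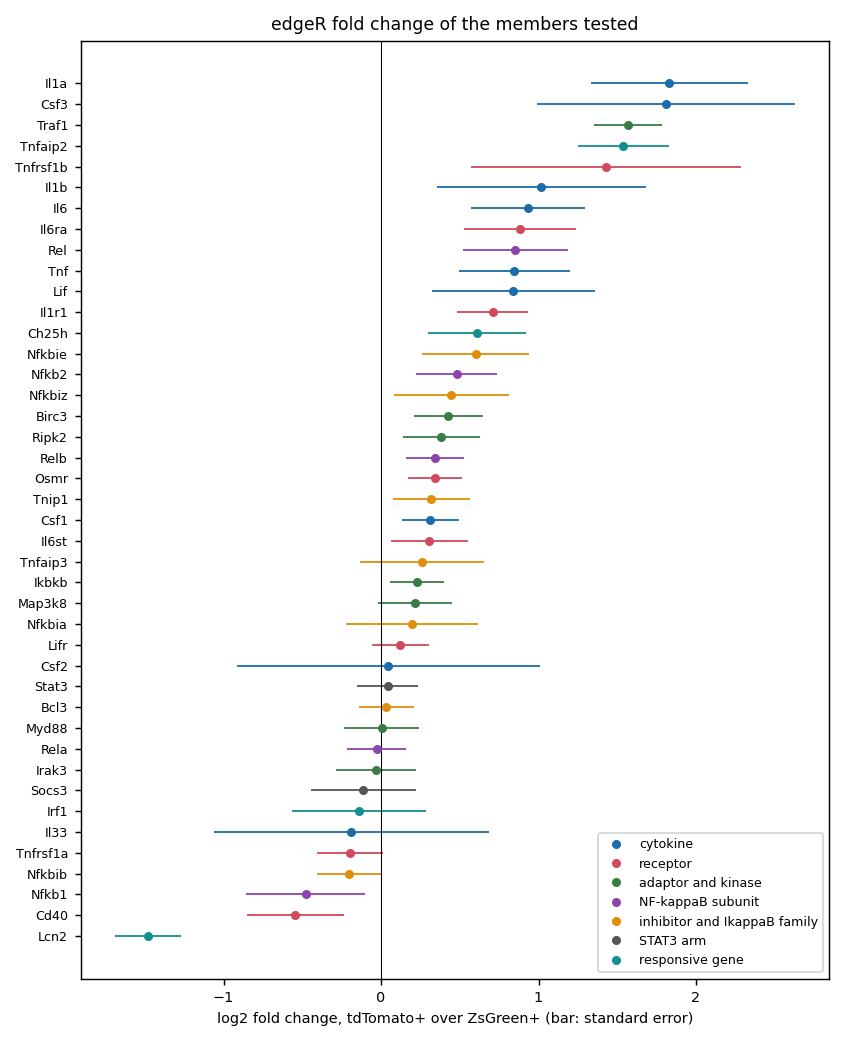
Log2 fold change of tdTomato+ over ZsGreen+ cells for the 42 tested genes, ordered by value and coloured by role. Points are edgeR's estimates, and bars are 1 standard error, derived from the F statistic of its test, on either side. Traf1, Tnfaip2 and Lcn2 stand farthest from 0 relative to their errors.

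Among adaptors, kinases and responsive genes, 3 members had the smallest p: Traf1 and Tnfaip2, which were about 3-fold higher in tdTomato+ cells, and Lcn2, which was lower. Traf1, which encodes an adaptor at tumour necrosis factor receptors and is itself a target of NF-kappaB, lies at chr2:34941750-34961812. It measured 37.1 and 39.7 CPM in tdTomato+ 1 and 2 and 13.9 and 12.0 CPM in ZsGreen+ 1 and 2. The libraries of each population lay close together and the populations did not overlap. Means were 38.4 ± 1.84 CPM in tdTomato+ and 13.0 ± 1.36 CPM in ZsGreen+ cells (SD, n = 2 each, as for every SD below), a 2.96-fold difference, or 1.57 (SE 0.21) on the log2 scale, at an adjusted p of 0.0525 in edgeR's test, just above the threshold.

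Tnfaip2, a gene first known for its induction by tumour necrosis factor in endothelial cells, lies at chr12:111442450-111455018 and measured 79.4 and 73.5 CPM in tdTomato+ 1 and 2 and 33.8 and 18.95 CPM in ZsGreen+ 1 and 2. Both tdTomato+ libraries were above both ZsGreen+ libraries, and ZsGreen+ 2 was the lowest of the 4. The log2 fold change was 1.54 (SE 0.29), a 2.90-fold difference, with an edgeR adjusted p of 0.129. Lcn2, at chr2:32384637-32387739, encodes lipocalin-2, a secreted protein that binds bacterial siderophores. It measured 17.5 and 18.0 CPM in tdTomato+ 1 and 2 and 54.8 and 44.5 CPM in ZsGreen+ 1 and 2. Both tdTomato+ libraries were low and nearly equal, and both ZsGreen+ libraries were well above them. The log2 fold change was -1.48 (SE 0.21), or 2.79-fold higher in ZsGreen+ cells, with an edgeR adjusted p of 0.0606.

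Traf1 and Tnfaip2 did not pass the edgeR threshold with all 4 libraries, nor did Lcn2, but all 3 kept their direction under each of the 13 alternatives tried, with log2 fold changes of 1.46 to 1.71, 1.18 to 2.01 and -1.63 to -1.29. DESeq2 called all 3 and also Il1a. Markers of other cells differed between the same libraries. Neutrophil and monocyte markers summed to 43.7 and 86.1 CPM in tdTomato+ 1 and 2 and to 36.5 and 88.2 CPM in ZsGreen+ 1 and 2. Of these sums, Ly6c2 alone gave 4.68, 41.8, 8.23 and 75.6 CPM in that order. Its counts were not whole numbers, so part of its reads was shared with other genes. Of the 6 tested genes of this list, 5 were higher in both tdTomato+ libraries (83.3%, against 19.9% of all genes), and 0 passed an unadjusted edgeR p under 0.05. The 5 were S100a8, S100a9, Csf3r, Retnlg and Ccr2. Airway epithelial markers summed to 49.7, 57.0, 18.2 and 388 CPM, of which Scgb1a1 alone gave 47.6, 54.4, 17.7 and 384 CPM. Venous endothelial markers summed to 2984, 3815, 1301 and 1100 CPM. Lymphatic endothelial markers were lower in both tdTomato+ libraries for 5 of 6 tested genes (18.2% of all genes), the direction of Lcn2. Of these, 2 were called (0.137% of all genes were called lower), Reln (log2 fold change -3.20, edgeR adjusted p 0.0465) and Mmrn1 (-3.10, edgeR adjusted p 0.0432). The other tested gene, Lyve1, had the highest CPM of this list in every library and a log2 fold change of 0.42. It measured 502.8 and 839.6 CPM in tdTomato+ 1 and 2 and 407.4 and 592.7 CPM in ZsGreen+ 1 and 2. The summed CPM of the lymphatic list overlapped between the populations. Alveolar type 2 markers were higher in both tdTomato+ libraries for 6 of 6 genes (19.9% of all genes) and summed to 391, 455, 246 and 125 CPM in the same order of libraries. Fibroblast markers summed to 205 and 366 CPM in the tdTomato+ libraries, and to 76.8 and 94.2 CPM in the ZsGreen+ libraries. The part of these cell types in Traf1, Tnfaip2 and Lcn2 was not tested. In bulk samples, fewer cells of a type and less RNA per cell cannot be told apart.

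**Figure D2:**
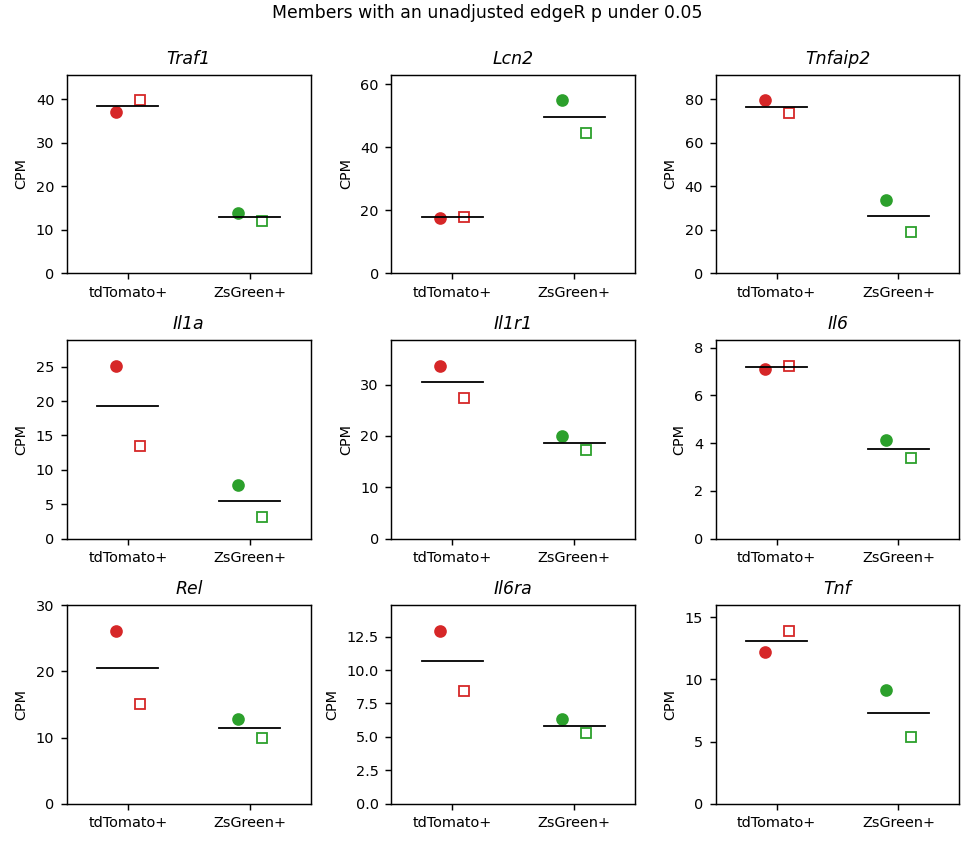
CPM of the 9 genes with an unadjusted edgeR p under 0.05 in each of the 4 libraries (filled circle, replicate 1; open square, replicate 2), with a line at each population's mean of 2 libraries and axes that start at 0. Lcn2 is higher in both ZsGreen+ libraries, and the other 8 genes are higher in both tdTomato+ libraries.

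Of the 9 cytokine genes 6 were higher in both tdTomato+ libraries than in both ZsGreen+ libraries (19.9% of all genes), and Il1a, Il6 and Tnf passed an unadjusted p under 0.05 in edgeR's test (8.77% of all genes), but none was called. Counts for the roles that follow are to be read against the same shares. Il1a, at chr2:129299609-129310186, encodes interleukin-1 alpha, an alarm signal that dying cells release and that activates the interleukin-1 receptor. It measured 25.1 and 13.5 CPM in tdTomato+ 1 and 2 and 7.72 and 3.18 CPM in ZsGreen+ 1 and 2. The populations did not overlap, but in each of them replicate 1 was well above replicate 2. The log2 fold change was 1.83 (SE 0.50), with an edgeR adjusted p of 0.286. Il1b, its neighbour on chromosome 2 at chr2:129364569-129371164, encodes interleukin-1 beta, which macrophages release after inflammasome cleavage, and measured 83.4 and 41.8 CPM in tdTomato+ 1 and 2 and 51.3 and 10.7 CPM in ZsGreen+ 1 and 2. Here the populations overlapped, as ZsGreen+ 1 exceeded tdTomato+ 2, and ZsGreen+ 2 was far below the rest. Il1b had a log2 fold change of 1.02 (SE 0.66). On the TPM scale, Il1b was between 4.65 and 9.99 times as high as Il1a in each library.

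Interleukin-6, the ligand of the STAT3 arm, is encoded by Il6 at chr5:30013114-30019975. Its gene measured 7.10 and 7.25 CPM in tdTomato+ 1 and 2 and 4.11 and 3.40 CPM in ZsGreen+ 1 and 2. Values within each population were close, and both tdTomato+ libraries were above the ZsGreen+ libraries, and the fold change was 0.93 (SE 0.36) on the log2 scale, at an edgeR adjusted p of 0.52. Tnf, which encodes tumour necrosis factor, the ligand of Tnfrsf1a and Tnfrsf1b, measured 12.2 and 13.9 CPM in tdTomato+ 1 and 2 and 9.17 and 5.37 CPM in ZsGreen+ 1 and 2. ZsGreen+ 2 was the lowest, without overlap between the populations. Its log2 fold change was 0.85 (SE 0.35), with an edgeR adjusted p of 0.558.

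The remaining cytokine genes gave smaller or less regular differences. Csf1, the macrophage colony-stimulating factor that keeps macrophages alive, ranged over 38.6 to 52.1 CPM with a log2 fold change of 0.31 (SE 0.18). Csf3, the granulocyte factor, measured 8.20 and 3.68 CPM in tdTomato+ 1 and 2 and 2.91 and 0.493 CPM in ZsGreen+ 1 and 2. ZsGreen+ 2 was lowest and tdTomato+ 1 highest, and the log2 fold change was 1.81 (SE 0.82). Lif, a gp130 ligand, lay at 1.58 to 3.41 CPM with 0.84 (SE 0.52) on the log2 scale. Csf2, the granulocyte-macrophage factor, and Il33, an alarm cytokine, ranged over 0.383 to 1.90 CPM and 0.506 to 4.00 CPM, and their log2 fold changes were 0.05 (SE 0.96) and -0.19 (SE 0.87). The 4 libraries of Il33 had no shared order, since ZsGreen+ 2 was highest and ZsGreen+ 1 lowest.

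**Figure D3:**
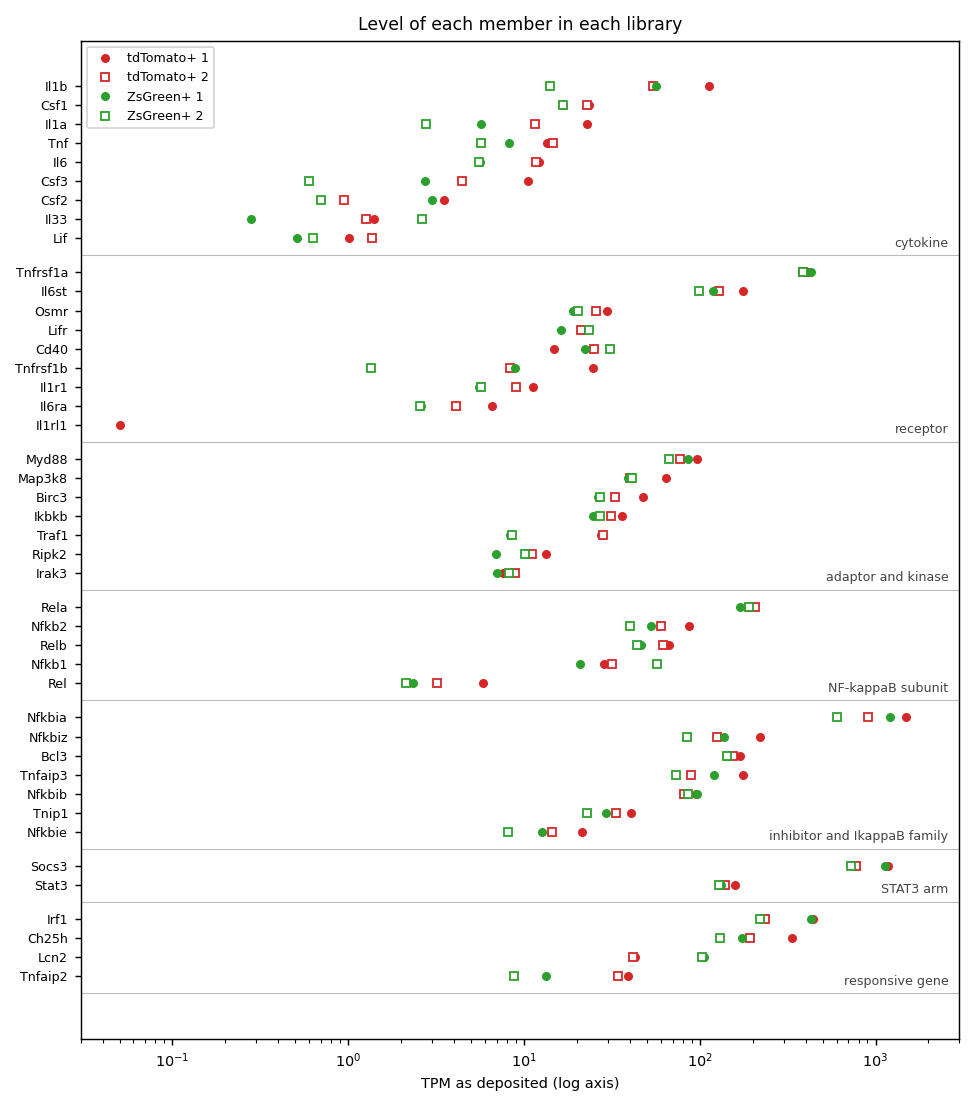
Level of each of the 43 genes in TPM on a log axis, grouped by role, with 1 point per library. Nfkbia, Socs3 and Tnfrsf1a are the highest, and most cytokine genes lie near the bottom. Il1rl1 was at 0 in 3 libraries, which cannot be drawn on a log axis.

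Of the 8 receptor genes tested, 3 were higher in both tdTomato+ libraries and 1 was lower, and Il1r1 and Il6ra passed an unadjusted p under 0.05. Il1r1, the signalling receptor for interleukin-1, measured 33.7 and 27.4 CPM in tdTomato+ 1 and 2 and 20.1 and 17.3 CPM in ZsGreen+ 1 and 2. Both tdTomato+ libraries exceeded both ZsGreen+ libraries. The log2 fold change was 0.71 (SE 0.23), with an edgeR adjusted p of 0.381. Il6ra, the ligand-binding chain for interleukin-6, measured 12.9 and 8.40 CPM in tdTomato+ 1 and 2 and 6.33 and 5.26 CPM in ZsGreen+ 1 and 2, again without overlap. Its log2 fold change was 0.88 (SE 0.36) and its edgeR adjusted p 0.54. Tnfrsf1a, the widely expressed tumour necrosis factor receptor, was the highest receptor per length, with 387 to 429 TPM in the 4 libraries. In CPM it measured 499 and 492 CPM in tdTomato+ 1 and 2 and 644 and 493 CPM in ZsGreen+ 1 and 2, so that 3 libraries were close and ZsGreen+ 1 was above them. The log2 fold change was -0.20 (SE 0.21).

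Tnfrsf1b, the second tumour necrosis factor receptor, which leukocytes and activated endothelium carry, was described in full after its values were seen. It measured 71.4 and 25.5 CPM in tdTomato+ 1 and 2 and 32.0 and 4.11 CPM in ZsGreen+ 1 and 2. The order of the libraries was tdTomato+ 1, ZsGreen+ 1, tdTomato+ 2 and ZsGreen+ 2, and the log2 fold change of 1.43 (SE 0.86) came with a spread of 2.799-fold within tdTomato+ and 7.79-fold within ZsGreen+ libraries. On the TPM scale Tnfrsf1a exceeded Tnfrsf1b by 16.8-fold in tdTomato+ 1 and by 288-fold in ZsGreen+ 2.

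The gp130 chain gene Il6st ranged over 337 to 567 CPM with a log2 fold change of 0.31 (SE 0.25). Per length it exceeded its partner Il6ra by 26.5- to 45.6-fold in TPM, Osmr by 4.90- to 6.27-fold and Lifr by 4.21- to 7.96-fold. Osmr, the oncostatin M receptor, ranged over 61.1 to 85.7 CPM at 0.34 (SE 0.17) for the log2 fold change, and Lifr, the leukaemia inhibitory factor receptor, over 69.0 to 85.6 CPM with 0.12 (SE 0.18). Cd40, a receptor through which T cells activate endothelium, was 1 of the 2 members lower in both tdTomato+ libraries, at 13.5 and 24.1 CPM in tdTomato+ 1 and 2 and 25.4 and 29.5 CPM in ZsGreen+ 1 and 2. Its log2 fold change was -0.54 (SE 0.31) and its edgeR adjusted p 0.739. Il1rl1, the interleukin-33 receptor, had 3 counts in tdTomato+ 1 and 0 in the other libraries, where a count of 0 allows up to 0.158 to 0.19 CPM (counting error only), and was not tested.

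Of the 7 adaptor and kinase genes only Traf1 passed an unadjusted p under 0.05, and 4 were higher in both tdTomato+ libraries. Myd88, the adaptor of interleukin-1 and Toll-like receptors, was the highest of this role and measured 103 and 87.5 CPM in tdTomato+ 1 and 2 and 115 and 75.4 CPM in ZsGreen+ 1 and 2. The populations overlapped and the log2 fold change was 0.00 (SE 0.24). Irak3, an inhibitory kinase of the same arm, lay at 13.2 to 16.3 CPM with -0.03 (SE 0.25). Ripk2, the kinase downstream of NOD receptors, lay at 13.3 to 20.6 CPM with 0.38 (SE 0.24). Ikbkb, the main catalytic IkappaB kinase, ranged over 59.9 to 76.0 CPM with 0.23 (SE 0.17). Map3k8, a kinase that links the pathway to ERK, ranged over 60.3 to 91.7 CPM with 0.21 (SE 0.23). Birc3, a ubiquitin ligase bound to TRAF proteins, ranged over 48.5 to 81.4 CPM with 0.43 (SE 0.22). The counts of Birc3, like those of Nfkb2 and Lifr, were not whole numbers, so part of their reads was shared with other genes.

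Of the 5 NF-kappaB subunit genes, Rel and Relb were higher in both tdTomato+ libraries, and Rel alone passed an unadjusted p under 0.05. Rela, the main transactivating subunit p65, measured 258 and 302 CPM in tdTomato+ 1 and 2 and 293 and 279 CPM in ZsGreen+ 1 and 2, in the same range in both populations, with a log2 fold change of -0.03 (SE 0.19). Rel, the c-Rel subunit of lymphoid and myeloid cells, measured 26.1 and 15.02 CPM in tdTomato+ 1 and 2 and 12.8 and 9.97 CPM in ZsGreen+ 1 and 2. Both tdTomato+ libraries were above both ZsGreen+ libraries, tdTomato+ 1 by the most, and the fold change was 0.85 (SE 0.33) on the log2 scale, with an edgeR adjusted p of 0.526. Nfkb1, the p105/p50 gene, measured 65.5 and 77.6 CPM in tdTomato+ 1 and 2 and 58.7 and 141 CPM in ZsGreen+ 1 and 2. ZsGreen+ 2 alone stood high, and the log2 fold change was -0.48 (SE 0.38). Nfkb2, the p100/p52 gene of the non-canonical arm, measured 181 and 131 CPM in tdTomato+ 1 and 2 and 135 and 89.3 CPM in ZsGreen+ 1 and 2, with ZsGreen+ 1 between the tdTomato+ libraries and a log2 fold change of 0.48 (SE 0.26). Relb, its partner, measured 82.3 and 80.7 CPM in tdTomato+ 1 and 2 and 71.1 and 57.4 CPM in ZsGreen+ 1 and 2 with no overlap and a log2 fold change of 0.34 (SE 0.18). On the TPM scale Rela was 2.79- to 4.34-fold above Relb, 2.14- to 4.77-fold above Nfkb2 and 31.8- to 89.8-fold above Rel.

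The 7 genes of inhibitors and of the IkappaB family all overlapped between the populations, and none passed an unadjusted p under 0.05. Nfkbia, which encodes IkappaB-alpha, the first inhibitor to be resynthesised after activation, averaged 1055 TPM, the highest of the 43 genes, with a range of 602 to 1496 TPM. In CPM it measured 1279 and 819 CPM in tdTomato+ 1 and 2 and 1291 and 541 CPM in ZsGreen+ 1 and 2. In each population replicate 1 was well above replicate 2, and the log2 fold change was 0.20 (SE 0.42). Tnfaip3, which encodes the ubiquitin-editing enzyme A20, measured 458 and 244 CPM in tdTomato+ 1 and 2 and 385 and 200.05 CPM in ZsGreen+ 1 and 2, in the same order of libraries within each population and with 0.26 (SE 0.39) between them. Nfkbiz, a nuclear IkappaB that works with p50, measured 468 and 282 CPM in tdTomato+ 1 and 2 and 361 and 189 CPM in ZsGreen+ 1 and 2 with a log2 fold change of 0.45 (SE 0.36). The other 4 of this role had lower CPM in every library. Nfkbie, IkappaB-epsilon, ranged over 11.7 to 29.7 CPM at 0.60 (SE 0.34) for the log2 fold change, and Bcl3 over 151 to 178 CPM with 0.03 (SE 0.18). Nfkbib, IkappaB-beta, ranged over 62.5 to 87.8 CPM with -0.20 (SE 0.20). Tnip1, an A20 partner, ranged over 37.0 to 62.5 CPM with 0.32 (SE 0.24). Nfkbia was 7.05- to 15.6-fold above Nfkbib on the TPM scale.

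The 2 genes of the STAT3 arm overlapped between the populations. Socs3, the feedback inhibitor of gp130 signalling, averaged 951 TPM and measured 1846 and 1273 CPM in tdTomato+ 1 and 2 and 2186 and 1187 CPM in ZsGreen+ 1 and 2. Replicate 1 of each population was higher than replicate 2, the populations overlapped and the log2 fold change was -0.11 (SE 0.33). Stat3, the transcription factor of this arm, measured 422 and 390.4 CPM in tdTomato+ 1 and 2 and 432 and 358 CPM in ZsGreen+ 1 and 2, with a log2 fold change of 0.04 (SE 0.19). Of the remaining responsive genes, Irf1, an interferon-induced transcription factor, measured 529.8 and 298 CPM in tdTomato+ 1 and 2 and 636 and 276 CPM in ZsGreen+ 1 and 2 and spread 1.78-fold within tdTomato+ and 2.30-fold within ZsGreen+ libraries, with a log2 fold change of -0.14 (SE 0.43). Ch25h, the cholesterol 25-hydroxylase that interferon and Toll-like receptor signals induce, measured 242 and 148 CPM in tdTomato+ 1 and 2 and 157 and 98.8 CPM in ZsGreen+ 1 and 2. ZsGreen+ 1 was above tdTomato+ 2, and the log2 fold change was 0.61 (SE 0.31).

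**Figure D4:**
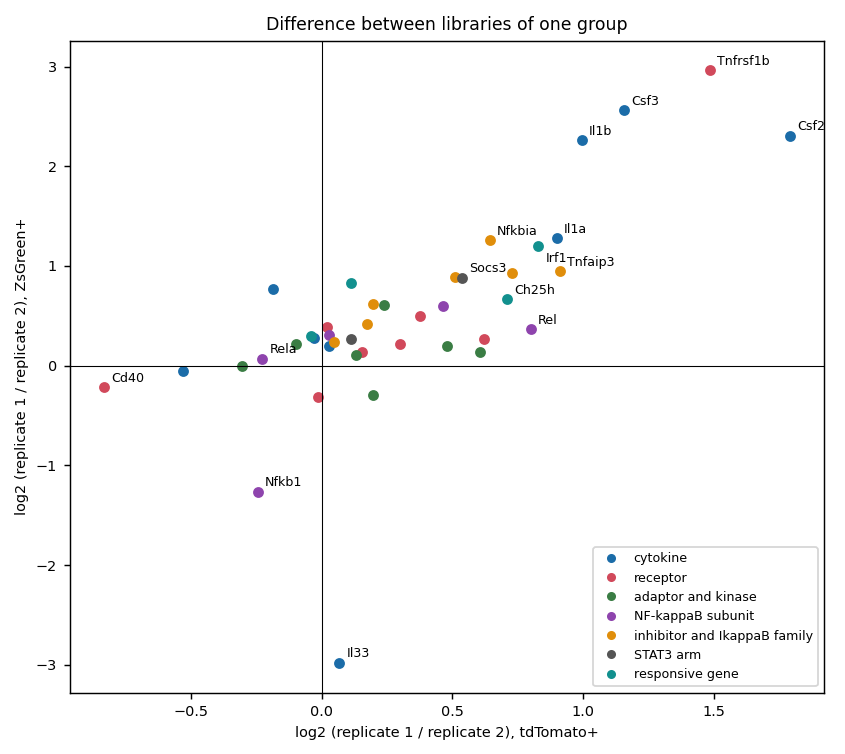
Log2 ratio of replicate 1 to replicate 2 among tdTomato+ libraries (x axis) and among ZsGreen+ libraries (y axis) for the 42 tested genes, coloured by role, with lines where both libraries are equal. Most genes lie in the upper right, where replicate 1 is the higher in both populations, and all 7 genes of inhibitors and of the IkappaB family do.

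Many of these genes were higher in tdTomato+ 1 and ZsGreen+ 1 than in the other library of the same population. This held in both populations for 30 of the 42 genes (71.4%), which was so for 29.0% of all tested genes. The difference was at least 1.5-fold in both populations for 10 (23.8%, against 4.87%), namely Il1a, Il1b, Csf2, Csf3, Tnfrsf1b, Nfkbia, Nfkbiz, Tnfaip3, Irf1 and Ch25h. No member was at least 1.5-fold higher in replicate 2 of both, where 4.30% of all genes were. All 7 genes of inhibitors and of the IkappaB family were higher in replicate 1 of both populations. Their median log2 ratio was 0.51 in tdTomato+ and 0.88 in ZsGreen+ libraries, against a median of 0.20 and 0.34 over the 42 genes and of 0.00 and 0.01 over all genes.

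Some lists of leukocyte markers moved with that spread and others did not. Alveolar macrophage markers summed to 5252 CPM in tdTomato+ 1, 2444 in tdTomato+ 2, 2883 in ZsGreen+ 1 and 599 in ZsGreen+ 2, and were higher in replicate 1 of both populations for 5 of 7 genes. Marco, a macrophage receptor in that list, went the other way, at 11.3 and 55.2 CPM in tdTomato+ 1 and 2 and 4.999 and 12.7 CPM in ZsGreen+ 1 and 2. Neutrophil and monocyte markers also summed higher in replicate 2 of both, as did Ly6c2 in that list, with the values given above. S100a8, S100a9, Csf3r, Retnlg and Ccr2 of the list were lower in ZsGreen+ 2 than in ZsGreen+ 1. Between the tdTomato+ libraries, Csf3r and Ccr2 were lower in replicate 2, and S100a8, S100a9 and Retnlg were higher. Ly6g and Mpo had at most 0.263 CPM. Pan-leukocyte markers summed to 394, 241, 248 and 56.8 CPM in the same order of libraries, and were higher in replicate 1 of both for 4 of 4 genes. Dendritic cell markers (39.1, 19.3, 24.5 and 5.09 CPM) and B cell markers (12.4, 4.83, 12.3 and 1.31 CPM) did the same for 4 of 4 genes each. T, NK and innate lymphoid markers were higher in replicate 1 of both for 5 of 8 genes. Their sum lay at 45.6 to 56.3 CPM, most of it from Gata3 (26.4 to 32.3 CPM) and Rora (9.49 to 20.0 CPM), which were not among the 5. Mast cell and basophil markers summed to at most 4.52 CPM, with Cpa3 and Ms4a2 at 0 in all 4 libraries. The macrophage sum fell in the order tdTomato+ 1, ZsGreen+ 1, tdTomato+ 2 and ZsGreen+ 2, and so did the pan-leukocyte, dendritic cell and B cell sums. This order was shared by 9 of the 42 members (21.4%, against 5.34% of all genes), namely Il1b, Il6st, Tnfrsf1b, Nfkb2, Nfkbie, Nfkbiz, Tnfaip3, Tnip1 and Ch25h. The part of these cells in the results was not tested.

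**Figure D5:**
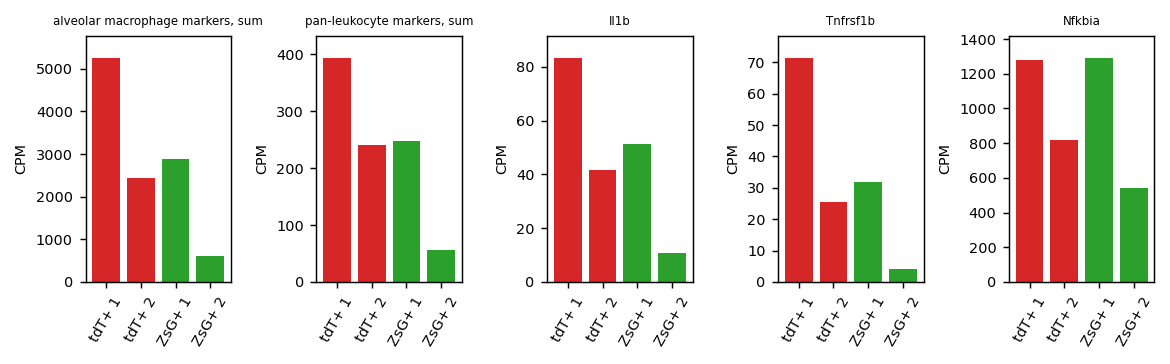
Summed CPM of alveolar macrophage and pan-leukocyte markers and the CPM of Il1b, Tnfrsf1b and Nfkbia, with 1 bar per library (tdT+, tdTomato+; ZsG+, ZsGreen+) on linear axes from 0. The alveolar macrophage and pan-leukocyte sums are highest in tdTomato+ 1 and lowest in ZsGreen+ 2, as are Il1b and Tnfrsf1b.

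Beside the 43 genes, 94 other genes of the pathways in 6 lists were examined, of which 91 were tested. The only one called was Vcam1, the endothelial adhesion molecule that NF-kappaB induces, which rose from 83.2 and 58.8 CPM in ZsGreen+ 1 and 2 to 294.08 and 275.68 CPM in tdTomato+ 1 and 2, with a log2 fold change of 2.00 (SE 0.22), at an edgeR adjusted p of 0.0304. The adjusted p was 0.0761 without tdTomato+ 1 and 0.126 without tdTomato+ 2, so the call was lost in both. Vcam1 is also 1 of the 6 venous endothelial markers, all of which had a log2 fold change above 0, and Cpe, another of them, had 1.77 at an edgeR adjusted p of 0.0304. Among the 20 other NF-kappaB target genes tested, 5 were higher (5.62% of all genes) and 2 lower (3.15%) at an unadjusted p under 0.05, and Vcam1 was called (0.304%). Sele, which encodes E-selectin, measured 577 and 471 CPM in tdTomato+ 1 and 2 and 211 and 150.5 CPM in ZsGreen+ 1 and 2, with no overlap and a log2 fold change of 1.54 (SE 0.24). Ptgs2, the inducible cyclooxygenase, measured 107 and 95.1 CPM in tdTomato+ 1 and 2 and 22.5 and 38.2 CPM in ZsGreen+ 1 and 2, at 1.74 (SE 0.27) for the log2 fold change, and Ptx3, a soluble pattern receptor, measured 2.26 and 2.47 CPM in tdTomato+ 1 and 2 and 8.04 and 25.5 CPM in ZsGreen+ 1 and 2 in the opposite direction, at -2.82 (SE 0.57). The edgeR adjusted p was 0.0832 for Sele, 0.0865 for Ptgs2 and 0.154 for Ptx3, so these did not pass.

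In the interleukin-1 and Toll-like receptor arm, 0 of 21 tested genes were called (0.304% of all genes), with a median log2 fold change of 0.09. At an unadjusted p under 0.05 in edgeR's test 3 passed (14.3%, against 8.77% of all genes). These 3 were Il18, with a log2 fold change of 1.52, Il1rn, which encodes the receptor antagonist, with 1.16, and Tlr2 with 1.20. Il1r2, the decoy receptor, had 1.02 and did not pass (unadjusted edgeR p 0.0562). In the tumour necrosis factor receptor arm 0 of 16 were called and 2 passed unadjusted (12.5%, against the same 8.77%), with a median of 0.01. Tnfrsf11b, which encodes osteoprotegerin, had -1.79 and Tnfrsf21, a death receptor, 1.18. In the IKK and ubiquitin machinery, 0 of 15 were called and 1 passed unadjusted (6.67%, against the same 8.77%), with a list median of 0.07. That gene, the deubiquitinase Otulin, was lower, with a log2 fold change of -0.72. In the interleukin-6 family and JAK-STAT arm 0 of 14 tested passed either threshold, with a median of 0.07. The 5 receptors for colony-stimulating factors had a median of 1.3, with 4 non-overlapping and higher in tdTomato+ cells (19.9% of all genes), 1 passing unadjusted (8.77%) and none called. Csf2ra, which macrophages use to bind granulocyte-macrophage factor, measured 58.7 and 29.2 CPM in tdTomato+ 1 and 2 and 22.0 and 8.55 CPM in ZsGreen+ 1 and 2. The highest was tdTomato+ 1 and the lowest ZsGreen+ 2, as in the macrophage and pan-leukocyte sums, but tdTomato+ 2 was above ZsGreen+ 1, unlike in those sums. Its log2 fold change was 1.53 (SE 0.50).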

How the data were processed

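RNA of lung endothelial cells was amplified over the whole transcriptome from a small input before library preparation, per the labels' protocols, and since the protocols mention no molecular identifiers, a count is not an independent molecule. The submitters' processing notes name RSEM 1.3.1, DESeq2 1.4.5 and the builds mm10 and GRCm38, with no role given. Aligner and strand setting: not given in the sources used here. Antisense and overlapping genes may therefore share reads.

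The authors deposited estimated counts, which are not whole for 16.2% to 17.9% of values per library and were rounded for the tests. They also deposited a normalized signal and FPKM values, neither used here, and TPM values, used for levels between genes and for an alternative test.

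The members and gene lists were chosen with earlier results of these data known. Any member may be named. Values in every library were planned for members with an unadjusted p under 0.05, the 5 subunits and the member of each role with the highest mean CPM; those of Csf3, Tnfrsf1b, Cd40, Nfkbiz, Tnfaip3, Stat3 and Ch25h were added after values were seen. Up to 4 genes per pathway list, those with the smallest p among genes that average 1 CPM or more, are named.

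edgeR 4.0.16 under R 4.3.3 compared 2 against 2 libraries by its quasi-likelihood F-test (two-sided), with TMM factors of 0.927 to 1.045 and filterByExpr at a minimum count of 10, on 13177 genes. The common biological coefficient of variation was 26.1%. Each SE was derived from this test, as the absolute log2 fold change divided by the square root of the F statistic. DESeq2 1.42.0, limma 3.58.1 and the other alternatives are given with their effects in the closing section. An exact permutation test of 2 against 2 libraries has 0.333 as its smallest two-sided p, so none was run. The procedure was tested on simulated data. Each simulated library was drawn independently, so that test does not cover differences shared by libraries with the same replicate number. Promoter sequences come from RefSeq (GRCm38.p6) and were trimmed of bases covered by GENCODE M21 exons.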

Additional observations from a re-analysis of the deposited data

How the results depend on the processing

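The 13 alternatives were other scalings, other filters, DESeq2, limma-voom, limma on TPM, the replicate number as a block, and each library left out. Called genes numbered 40 over all genes, 0 among the members and 1 among the other pathway genes. With RLE factors they were 41, 0 and 1, with upper quartile factors 37, 0 and 1, with limma-voom 33, 0 and 1, with limma on log2(TPM + 0.1) 22, 0 and 2, and with at least 50 counts 46, 1 and 1. Limma on log2(TPM + 1) gave 31, 1 and 2. DESeq2 gave 330, 4 and 7, no filter 128, 3 and 5, and the replicate block 934 (7.09%), 7 (Tnfrsf1b, Csf3, Tnfaip2, Traf1, Lcn2, Il1b and Il1a) and 22. With 1 library left out, they ranged from 4 to 304, 0 to 7 and 0 to 13. The labels do not say that the replicate numbers pair libraries, and the deviations of libraries with the same number correlated at 0.45, so the block is a hint from the data only. The TPM fits moved the median of all genes by 0.13 and 0.14 and made 37 of 42 members positive. The members' median log2 fold change ran from 0.16 (without tdTomato+ 1) to 0.58 (without ZsGreen+ 1). Some values changed sign; the cause was not tested. Il33 was 0.38 with limma-voom, 0.12 and 0.50 on TPM with pseudocounts of 1 and 0.1, and 0.24 with the replicate block. Myd88 was -0.006 with RLE factors and -0.0112 with DESeq2. Irak3 was 0.0107 with upper quartile factors and 0.11 and 0.12 on TPM, and Rela 0.018, 0.12 and 0.12. Socs3 was 0.0806 and 0.0807 and Irf1 0.077 and 0.0772 on TPM. Leaving out 1 library gave ranges of -1.003 to 1.96 for Il33, -1.10 to 1.60 for Csf2, -0.38 to 0.012 for Tnfrsf1a, -0.0215 to 0.28 for Lifr, -0.27 to 0.34 for Myd88, -0.17 to 0.11 for Irak3, -0.12 to 0.51 for Map3k8, -0.97 to 0.28 for Nfkb1, -0.12 to 0.0799 for Rela, -0.30 to 0.96 for Nfkbia, -0.40 to 0.0244 for Nfkbib, -0.0829 to 0.16 for Bcl3, -0.27 to 0.81 for Tnfaip3, -0.0917 to 0.19 for Stat3, -0.49 to 0.40 for Socs3 and -0.62 to 0.59 for Irf1. With 2 libraries a population, a fit that leaves 1 out assumes that the lone library varies like the others. Il1rl1, with 3 counts in all, was too shallow to test.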

Other observations

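Genes that the deposited table annotates to NF-kappa B signalling (KEGG pathways) numbered 104, of which 94 were tested, and the median log2 fold change was 0.13. In edgeR's test 1 was called higher in tdTomato+ cells (Vcam1, 0.167% of all genes) and 3 were called lower (0.137%). The 3 lower genes are near-identical Ccl21 copies, Gm13304, Gm10591 and Gm21541, which share reads, so their counts are uncertain. They had the same CPM as each other in every library, so they are 1 signal. The same 3 were the only genes called among those of cytokine-receptor interaction. In the same annotation, 104 tested genes of TNF signalling had a median of 0.05, 105 of JAK-STAT signalling 0.06, and 160 of cytokine-receptor interaction 0.28. These annotations were looked at after the data had been seen.

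Some of these genes lay outside the lists. Ccnd1, which encodes cyclin D1 and is annotated to JAK-STAT signalling, measured 427 and 374 CPM in tdTomato+ 1 and 2 and 717 and 780.5 CPM in ZsGreen+ 1 and 2, lower in both tdTomato+ libraries, with a log2 fold change of -0.90 (SE 0.19). Bmp4, a ligand of the transforming growth factor family, measured 199 and 197 CPM in tdTomato+ 1 and 2 and 108 and 74.1 CPM in ZsGreen+ 1 and 2, with no overlap and 1.13 (SE 0.22). Prkcq, a protein kinase C of T cell signalling, measured 4.51 and 2.89 CPM in tdTomato+ 1 and 2 and 12.1 and 15.1 CPM in ZsGreen+ 1 and 2, with -1.88 (SE 0.36). Cx3cl1, the membrane-bound chemokine fractalkine, measured 64.5 and 77.9 CPM in tdTomato+ 1 and 2 and 46.0 and 34.2 CPM in ZsGreen+ 1 and 2, with 0.83 (SE 0.22). The receptor chain Il13ra1 measured 63.7 and 53.8 CPM in tdTomato+ 1 and 2 and 34.1 and 36.2 CPM in ZsGreen+ 1 and 2, with 0.74 (SE 0.19). None of these 5 passed edgeR's adjusted threshold, with adjusted p values of 0.172, 0.144, 0.143, 0.274 and 0.253 in that order.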
